A study of Homo sapiens with 6 samples.

Results

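The genes of the proteasome were examined in C4-2B prostate cancer cells, parental and enzalutamide resistant. A gene was taken as a member when its symbol in the expression table is PSM followed by a letter from A to G and a number, and this found 48 of the 58024 rows. The rule uses no measured value, but it was set with earlier results of these data known. By role they are the 7 subunits of the alpha ring, 4 non-catalytic beta subunits, 3 constitutive catalytic beta subunits, 3 immunoproteasome beta subunits, 2 tissue-restricted core subunits, 6 ATPases and 11 non-ATPase subunits of the 19S particle, 3 chaperones of 19S assembly, 4 activators, 1 inhibitor and 4 chaperones of 20S assembly. Proteins of the complex that carry other symbols, such as POMP, ADRM1 and SEM1, were looked up in a separate list.

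C4-2B is a castration-resistant subline of the LNCaP prostate cancer cell line. Enzalutamide is an antiandrogen used in prostate cancer. RNA was sequenced from 3 libraries of parental C4-2B cells, passaged in the vehicle dimethyl sulfoxide (1% by the labels, and a lower concentration by the study's methods), and from 3 libraries of enzalutamide resistant C4-2B cells. These came from passage in rising enzalutamide, from 1 up to 20 µM, over no less than 6 months, were then kept in 5 µM, and form 1 pool of surviving cells of 1 line. Both kinds of cells were grown in RPMI medium with 10% fetal bovine serum. The methods describe RNA extraction from resistant and sensitive cells continuously kept in 10 µM enzalutamide, wording that takes in the parental cells, and the extraction text of the labels can be read the same way, while the culture of the parental cells is described with the vehicle alone. Whether the parental cells held the drug at extraction was not settled. No label says that the libraries of a group came from separate cultures, so that p values measure the spread between these libraries, which may be technical.

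Levels are FPKM, which counts fragments against transcript length and sequencing depth. The depth of the libraries, which the table does not give, was estimated at 13600000 to 20600000 reads, at which 1 read on a transcript of 1000 bases is worth 0.0607 to 0.0915 FPKM. All 10 markers of prostate luminal epithelium that were looked up were found, and the lowest value of any of them in any library was 41.8 FPKM, for KLK3 in the resistant cells. The leukocyte genes CD3E and TYROBP were listed at 0 throughout, and PTPRC was at 0 in 5 libraries and at 0.0531 FPKM in resistant replicate 0. In bulk RNA, fewer cells of a type and less RNA per cell cannot be told apart.

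The proteasome degrades proteins that carry chains of ubiquitin. Its barrel, the 20S core, is a stack of alpha and beta rings in which PSMB5, PSMB6 and PSMB7 carry the chymotrypsin-like, caspase-like and trypsin-like active sites. The 19S particle binds ubiquitin, removes it, unfolds the substrate with a ring of ATPases and feeds it into the core. In cells of the immune system and in cells exposed to interferon gamma, PSMB8, PSMB9 and PSMB10 take the places of PSMB5, PSMB6 and PSMB7, and the PSME1 and PSME2 proteins form the PA28 activator, which serves the making of peptides for MHC class I. When proteasome activity is blocked, the transcription factor NFE2L1 raises the subunit genes together through antioxidant response elements in their promoters.

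Promoter sequences are shown for 6 members whose levels differed between the cells, since proteasome genes are known to share promoter elements. They are PSMB9 and PSME1, which were higher in the resistant cells, and PSMB10, PSMD12, PSMD2 and PSMC4, which were lower. Each sequence is the window from 250 to 51 bases before the start of the gene, from RefSeq (GRCh38.p14), in the direction of transcription. Capitals mark a match to TGACNNNGC, the core of the antioxidant response element, on either strand.
PSMB9: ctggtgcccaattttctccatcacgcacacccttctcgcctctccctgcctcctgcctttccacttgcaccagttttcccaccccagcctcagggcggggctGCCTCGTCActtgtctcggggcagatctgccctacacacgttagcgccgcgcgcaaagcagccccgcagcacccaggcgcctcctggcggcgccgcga
PSME1: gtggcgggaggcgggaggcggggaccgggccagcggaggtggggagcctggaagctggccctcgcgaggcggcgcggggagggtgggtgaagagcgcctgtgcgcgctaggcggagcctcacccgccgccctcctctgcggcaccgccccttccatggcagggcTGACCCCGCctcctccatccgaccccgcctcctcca
PSMD12: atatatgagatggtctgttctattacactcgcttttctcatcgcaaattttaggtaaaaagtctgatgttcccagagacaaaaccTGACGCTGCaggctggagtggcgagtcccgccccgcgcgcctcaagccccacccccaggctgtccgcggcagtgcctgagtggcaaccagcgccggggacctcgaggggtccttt
PSMB10: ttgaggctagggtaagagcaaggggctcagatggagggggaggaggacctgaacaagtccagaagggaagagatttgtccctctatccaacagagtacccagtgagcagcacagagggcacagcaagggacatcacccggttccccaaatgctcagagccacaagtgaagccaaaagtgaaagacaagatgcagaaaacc
PSMD2: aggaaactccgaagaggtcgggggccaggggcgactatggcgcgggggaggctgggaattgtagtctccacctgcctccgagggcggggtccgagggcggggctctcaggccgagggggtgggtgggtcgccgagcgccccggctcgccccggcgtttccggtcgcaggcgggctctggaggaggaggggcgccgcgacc
PSMC4: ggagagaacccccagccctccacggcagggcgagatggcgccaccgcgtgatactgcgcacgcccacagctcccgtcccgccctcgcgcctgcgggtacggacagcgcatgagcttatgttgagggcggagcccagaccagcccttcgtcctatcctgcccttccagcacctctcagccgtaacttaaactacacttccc
The windows lie at chr6:32853942-32854141 on the plus strand for PSMB9, chr14:24135944-24136143 on the plus strand for PSME1, chr17:67366628-67366827 on the minus strand for PSMD12, chr16:67936901-67937100 on the minus strand for PSMB10, chr3:184298991-184299190 on the plus strand for PSMD2 and chr19:39970915-39971114 on the plus strand for PSMC4. The PSMB9 window lies between TAP1, which is read in the opposite direction, and the RefSeq start of PSMB9. The GENCODE span of PSMB9 begins farther upstream and takes in both this window and TAP1.

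Among all 35116 promoter windows of this length, 8.27% held TGACNNNGC on either strand. Of the 48 members, 42 had a window, and 9 of these (21.4%) held the motif. These were PSMA4, PSMB3, PSMB9, PSMD5, PSMD9, PSMD12, PSME1, PSME2 and PSMG1. The members with the motif were not uniform in direction, with 4 higher in the resistant cells, 2 lower and 3 not past the threshold used below. At that threshold, 22.1% of all genes tested were higher and 22.3% lower. The interferon-stimulated response element, taken as GAAA repeated after 2 bases, was in 2.39% of all windows and in 2 members, PSMA4 and PSMB4. The inverted repeat TTCNNNGAA was in 5.48% of all windows and in 6 members, PSMA2, PSMA8, PSMB5, PSMB8, PSMD3 and PSME3. Both were sought on either strand, and none of these motifs was seen in the windows of PSMB10, PSMD2 and PSMC4. A match is a description of the letters only.

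For the comparison of resistant and parental cells, 0.1 FPKM was added to each value as a pseudocount, and the log2 values of 24468 genes, those whose mean was 0.1 FPKM or higher, were fitted with limma. Calls of higher or lower rest on p values adjusted by the Benjamini-Hochberg method over all of these genes, two-sided, with a threshold of 0.05, and SE stands for the standard error of a log2 fold change. Of the 48 members, 46 were tested. PSMA8, the alpha subunit of the testis proteasome, and PSMB11, the beta subunit of the thymus proteasome, were listed at 0 in all 6 libraries and were not tested. Of the tested members, 9 were higher in the resistant cells, 19 were lower and 18 did not pass the threshold. Called members made up 60.9% of those tested, against a background of 44.4% over all genes (22.1% higher and 22.3% lower). Calls are more frequent among abundant genes, with 56.7% of the 8936 genes at a mean of 10 FPKM or more called (25.2% higher and 31.6% lower), and 43 members are at that level, of which 7 were higher and 19 lower (60.5%). The share of members called is thus near that of abundant genes. The resistant values lay all above the parental values in 11 members and all below in 23, and the groups overlapped in 14, which include the members listed at 0. Over all genes tested, the groups did not overlap in 54.8% (26.6% above and 28.1% below), and at 10 FPKM or more in 66.3% (29.4% above and 36.9% below).

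The median log2 fold change of the members was −0.21, against −0.05 over all genes tested and −0.09 over genes at 10 FPKM or more. The direction split depends on how the libraries are scaled to each other. Median-ratio scaling gave 10 members higher and 14 lower, with a member median of −0.11, and quantile normalization gave 13 and 13, with a member median of −0.08. Of the calls, 32.1% were higher with the values as deposited, 41.7% with median-ratio scaling and 50.0% with quantile normalization. In these settings, in all others tried and with each library left out, 6 members stayed higher (PSMA2, PSMB4, PSMD1, PSMD5, PSMD9 and PSME1) and 13 stayed lower (PSMA6, PSMB3, PSMB10, PSMC4, PSMC5, PSMD2, PSMD6, PSMD7, PSMD11, PSMD12, PSMD14, PSME4 and PSMF1), apart from the setting that also asked for a 2-fold change. The other 9 calls, PSMA1, PSMA3, PSMB5, PSMB7, PSMB8, PSMB9, PSMD3, PSMD8 and PSME3, were each lost in at least 1 setting.

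**Figure D1:**
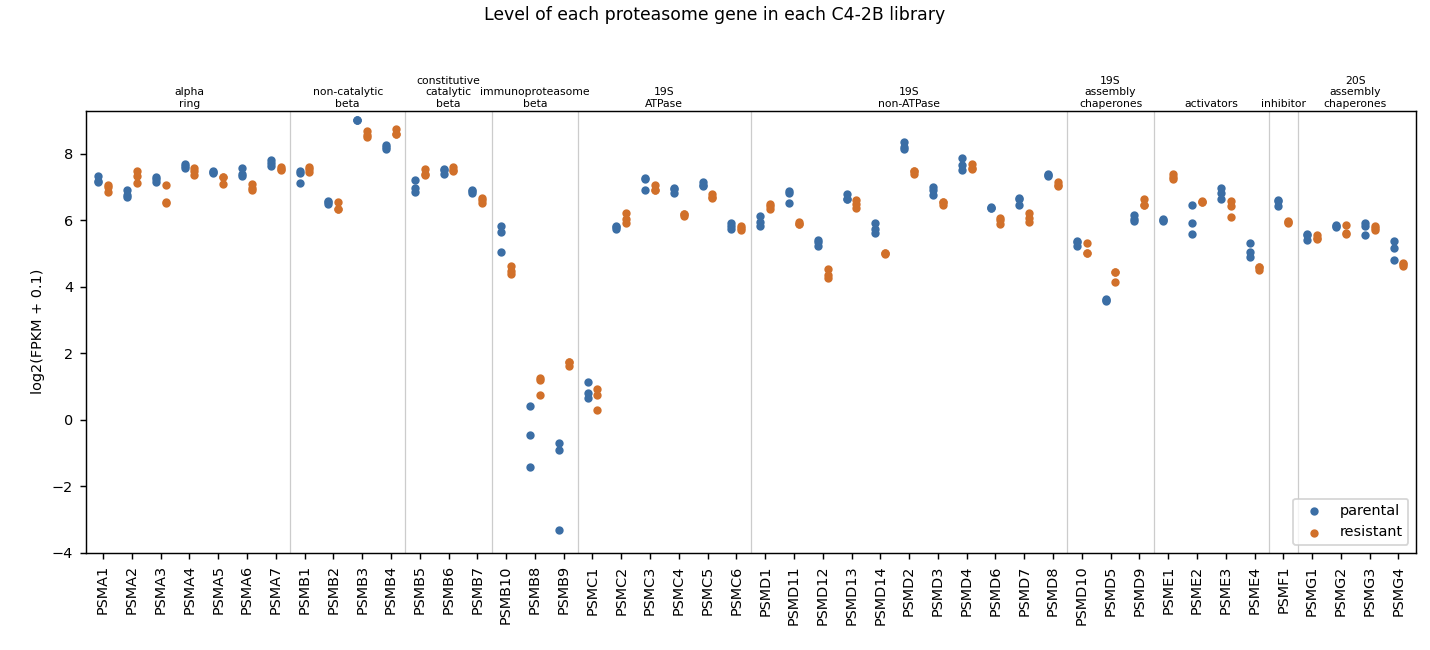
Level of each of the 46 proteasome genes above 0 in each library, as log2(FPKM + 0.1), with parental libraries in blue and resistant libraries in orange, 1 point per library, grouped by role. Most genes lie at 10 FPKM or more in every library, and PSMB8, PSMB9 and PSMC1 lie far below the others.

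**Figure D2:**
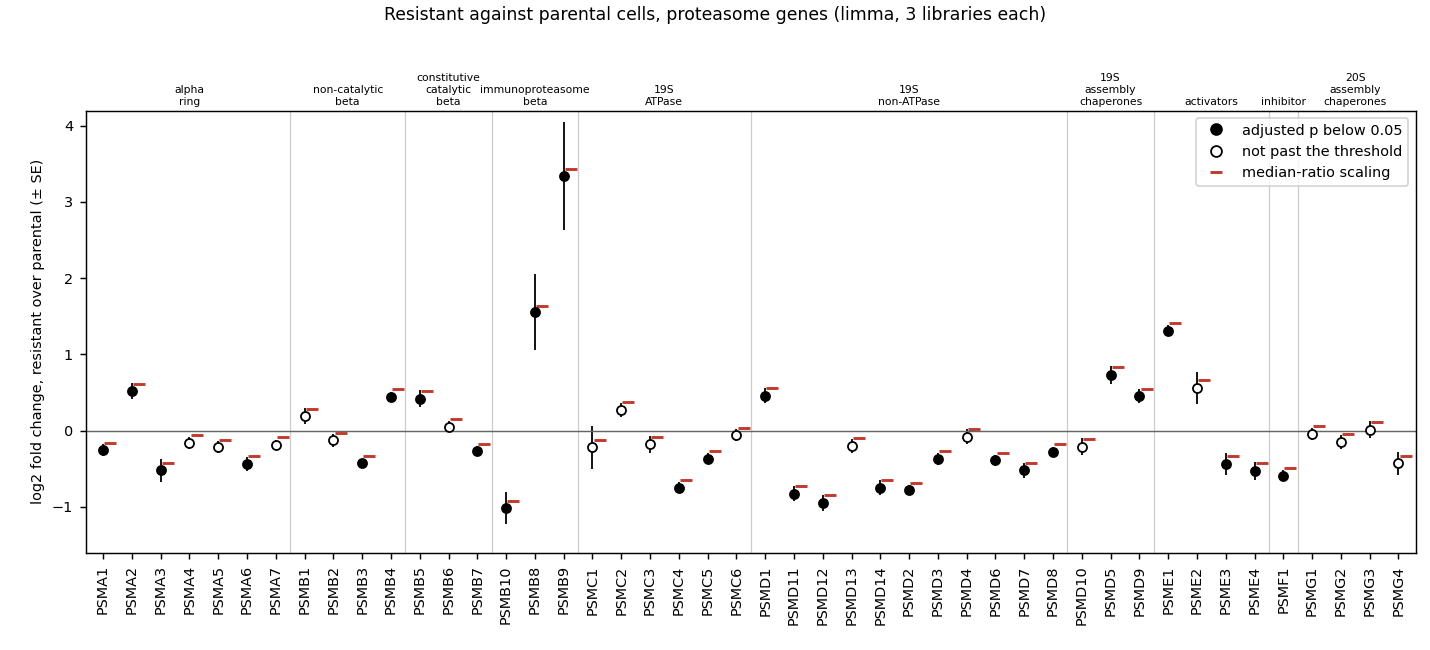
Log2 fold change (log2 scale) of resistant over parental cells for each gene from limma, with bars of 1 standard error (SE), 3 libraries in each group. Filled points passed an adjusted p of 0.05, open points did not, and red dashes give the value with median-ratio scaling. PSMB9, PSMB8 and PSME1 stand highest, and PSMB10 and PSMD12 lowest.

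In the alpha ring, which forms the gate of the core, 1 subunit was higher in the resistant cells, 3 were lower and 3 did not pass. The share called is near the 56.7% of genes at 10 FPKM or more (25.2% higher and 31.6% lower). PSMA2 was at 119.6, 104 and 108 FPKM in the parental and at 138, 178 and 159.6 FPKM in the resistant libraries. The groups did not overlap, and the log2 fold change was 0.52 (SE 0.11, limma adjusted p = 0.0104). It was the only alpha subunit called higher. PSMA6 was at 191, 161 and 167 FPKM in the parental and at 119.5, 136 and 126 FPKM in the resistant libraries, lower by −0.44 on the log2 scale (SE 0.09, limma adjusted p = 0.00815). PSMA3 was at 151, 156 and 141 FPKM against 132, 90.6 and 93.5 FPKM, where resistant replicate 0 lies apart from the other resistant libraries and nearer to the parental ones. Its log2 fold change of −0.52 had an adjusted p of 0.0319, and PSMA1, from 149.6 ± 9.70 to 125 ± 8.98 FPKM (SD, n = 3 each), had one of −0.26 with an adjusted p of 0.0464 (limma with Benjamini-Hochberg adjustment). Both calls were lost with median-ratio scaling. The PSMA1 call was lost whichever library was left out (log2 fold changes of −0.30 to −0.20), and the PSMA3 call with any but resistant replicate 0 left out (−0.70 to −0.42). PSMA4, PSMA5 and PSMA7 had log2 fold changes of −0.16, −0.22 and −0.19 with limma adjusted p values of 0.150, 0.0606 and 0.0664, and in PSMA5 and PSMA7 all resistant values lay below the parental ones. The proteins of this ring are built in equal numbers. Their RNAs were not at equal levels, since the highest alpha subunit was 1.93 ± 0.109 times the lowest in the parental and 1.87 ± 0.299 times in the resistant libraries (SD, n = 3 each).

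The non-catalytic beta subunits, which complete the inner rings, went apart. PSMB3 was the most abundant member in the parental cells, at 517, 516 and 519 FPKM, and fell to 365, 408 and 379.7 FPKM in the resistant libraries, a log2 fold change of −0.43 (SE 0.06, limma adjusted p = 0.002). PSMB4 rose from 307, 281 and 295.5 FPKM to 387.5, 427 and 387 FPKM, a log2 fold change of 0.44 (SE 0.07, limma adjusted p = 0.00277), and was the most abundant member in the resistant cells. The resistant values of PSMB3 and PSMB4 overlapped, while their parental values lay far apart. The other members of this class were PSMB1, with 163 ± 21.0 FPKM in the parental and 185 ± 11.2 FPKM in the resistant libraries, and PSMB2, with 92.6 ± 3.18 and 84.7 ± 6.85 FPKM (SD, n = 3 each). Neither passed the threshold (limma adjusted p = 0.217 and 0.235), and their groups overlapped. Within a library, where scaling cancels, PSMB4 was 3.26, 3.16 and 3.12 times PSMB2 in the parental and 4.75, 4.61 and 4.83 times in the resistant libraries. This ratio was chosen after its values were seen.

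The constitutive catalytic subunits were abundant in both kinds of cells. PSMB5, the chymotrypsin-like subunit and the target of bortezomib, was at 148, 115 and 125 FPKM in the parental and at 163, 187 and 167 FPKM in the resistant libraries. It was higher by 0.42 on the log2 scale (SE 0.11, limma adjusted p = 0.0221), and the call was lost without a variance trend and when parental replicate 1, parental replicate 2, resistant replicate 1 or resistant replicate 2 was left out (values of 0.34 to 0.52 with each library left out in turn). PSMB6, the caspase-like subunit, was at 186, 168 and 183 FPKM against 178, 195 and 183.5 FPKM. Its groups overlapped, with a log2 fold change of 0.05 (SE 0.07, limma adjusted p = 0.571). PSMB7, the trypsin-like subunit, was at 120.1, 112 and 117.5 FPKM against 90.7, 102 and 98.0 FPKM, lower by −0.27 (SE 0.07, limma adjusted p = 0.0238), and the call was lost with median-ratio scaling and when parental replicate 0, parental replicate 2, resistant replicate 0 or resistant replicate 2 was left out (−0.31 to −0.22). The constitutive active-site subunits thus had 1 gene higher, 1 lower and 1 not past the threshold. Among genes at 10 FPKM or more, 56.7% were called.

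The immunoproteasome subunits moved in opposite directions and differed widely in level. PSMB10, which replaces PSMB7, was at 57.1, 32.7 and 49.6 FPKM in the parental and at 20.8, 21.9 and 24.5 FPKM in the resistant libraries. It fell 2.02-fold, a log2 fold change of −1.01 (SE 0.21, limma adjusted p = 0.00869), the largest decrease among the members, and ranged from −1.25 to −0.85 with a library left out. PSMB8, which replaces PSMB5, was at 1.22, 0.274 and 0.6225 FPKM in the parental and at 2.18, 1.56 and 2.28 FPKM in the resistant libraries. The groups did not overlap, and the log2 fold change was 1.56 (SE 0.50, limma adjusted p = 0.0435). PSMB9, which replaces PSMB6, was at 0.430, 0 and 0.511 FPKM in the parental and at 2.955, 3.21 and 3.25 FPKM in the resistant libraries, a log2 fold change of 3.34 (SE 0.71, limma adjusted p = 0.00978). Parental replicate 1 was the lowest parental library for all these subunits.

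Few reads stand behind the low values. For a transcript of 1000 bases, PSMB8 corresponds to about 20, 4 and 7 reads in the parental and 31, 21 and 26 reads in the resistant libraries, and PSMB9 to about 7, 0 and 6 reads against 41, 42 and 37 reads. The size of these increases depends on the pseudocount, and was 0.85 for PSMB8 and 1.68 for PSMB9 with 1 FPKM and 1.72 and 4.58 with 0.01 FPKM, where both calls were lost (limma adjusted p = 0.052 and 0.0535). Leaving out parental replicate 1, in which PSMB9 was listed at 0, gave 2.51 for PSMB9 (limma adjusted p = 0.00126) and 1.09 for PSMB8 (adjusted p = 0.0688). The PSMB8 call was also lost when parental replicate 2 or any resistant library was left out. By the GENCODE annotation, PSMB8 (chromosome 6, 32840717 to 32844679 in GRCh38) and PSMB9 (32844136 to 32859851) overlap on opposite strands, and TAP1 (32845209 to 32853816) lies within PSMB9. The use of strand in counting is not stated, so that reads in the shared stretches cannot be told apart. The summed level of 8 leukocyte markers moved in the same direction. It was 0.3345 to 0.566 FPKM in the parental and 1.79 to 2.99 FPKM in the resistant libraries. Of the 4 markers tested, 2 were called higher, where 22.1% of all genes tested were. CD3E and TYROBP remained at 0, and the part of these genes in the result was not tested.

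Each immunoproteasome subunit was also set against the subunit it replaces within the same library, where the scaling between libraries has no effect. PSMB10 was at 47.6%, 29.15% and 42.2% of PSMB7 in the parental and at 22.9%, 21.4% and 24.98% in the resistant libraries. PSMB9 was at 0.231%, 0% and 0.279% of PSMB6 against 1.66%, 1.645% and 1.77%, and PSMB8 at 0.824%, 0.239% and 0.497% of PSMB5 against 1.34%, 0.837% and 1.37%. None of these ratios overlapped between the groups, but for PSMB8 parental replicate 0 and resistant replicate 1 were nearly level and changed order with the pseudocount of 0.1 FPKM that the test used. Two-sided exact permutation tests gave p = 0.1 for PSMB10 and PSMB9, the smallest p that 3 against 3 libraries allow, and p = 0.2 for PSMB8, or 0.15, 0.15 and 0.2 after adjustment over the 3 ratios. In both kinds of cells, PSMB8 and PSMB9 stayed under 2% of their constitutive counterparts. PSMB10 made up most of the summed immunoproteasome level, which was 58.8, 33.0 and 50.7 FPKM in the parental and 25.9, 26.7 and 30.0 FPKM in the resistant libraries.

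**Figure D3:**
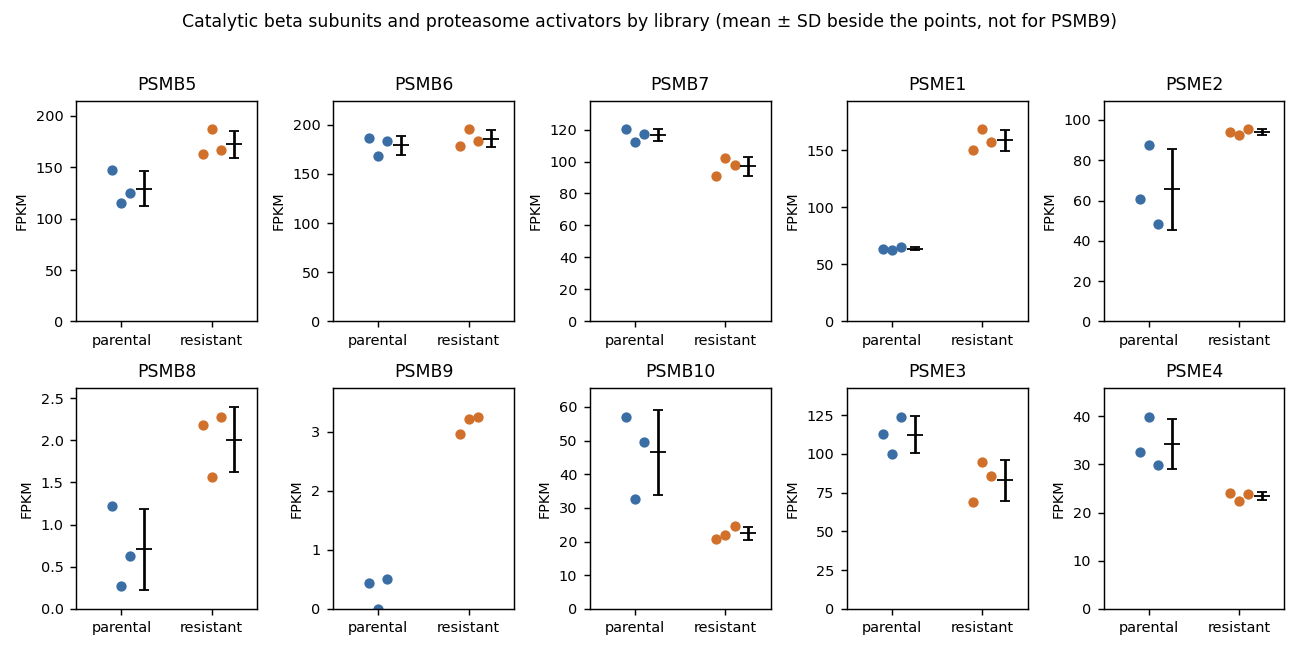
FPKM of the 6 catalytic beta subunits and the 4 activators in each library (linear axes from 0), with parental libraries in blue, resistant libraries in orange, and the mean ± SD of 3 libraries beside the points except for PSMB9, which was listed at 0 in parental replicate 1. PSMB10 falls while PSMB8 and PSMB9 rise from levels near 0, and PSME1 rises from about 63.9 to 158.6 FPKM.

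The 19S particle had most of the decreases, with 1 of its 17 subunits higher in the resistant cells, 10 lower and 6 not past the threshold. Over genes at 10 FPKM or more, 25.2% were called higher and 31.6% lower. The median log2 fold change of these subunits was −0.37, against −0.17 for the 14 alpha and constitutive or non-catalytic beta subunits, of which 3 were higher and 5 lower. Among the ATPases, which unfold the substrate, none was higher. PSMC4 was at 125, 123 and 113 FPKM in the parental and at 72.3, 69.75 and 72.9 FPKM in the resistant libraries, a 1.68-fold decrease and a log2 fold change of −0.75 (SE 0.07, limma adjusted p = 0.00029). PSMC5 fell from 136 ± 6.18 to 105 ± 4.09 FPKM (SD, n = 3 each), which is a log2 fold change of −0.37 (limma adjusted p = 0.00503). The other ATPases were not past the threshold: PSMC2 had a log2 fold change of 0.27 (adjusted p = 0.0579), with all resistant values above the parental ones, PSMC3 one of −0.18 (adjusted p = 0.245), and PSMC6 one of −0.06 (adjusted p = 0.583), which turned to 0.04 with median-ratio scaling. PSMC2 passed the threshold as higher with median-ratio scaling (0.37) and with quantile normalization (0.39).

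PSMC1, an ATPase of the same ring, stood at 1.47, 2.08 and 1.635 FPKM in the parental and at 1.11, 1.56 and 1.79 FPKM in the resistant libraries. The other ATPases had group means of 54.4 to 142 FPKM, and their mean was 60.5 ± 12.3 times PSMC1 in the parental and 58.9 ± 13.3 times in the resistant libraries (SD, n = 3 each). The ATPase ring of the protein complex holds each ATPase in equal number. Whether the low listed values reflect PSMC1 RNA or the annotation or estimate of this row was not tested. The table also lists 13 pseudogenes of PSMC1, none above 0.372 FPKM in any library. Its log2 fold change was −0.22 (SE 0.28, limma adjusted p = 0.559), and at about 16 to 34 reads for a transcript of 1000 bases this comparison is imprecise.

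Of the 11 non-ATPase subunits, 8 were lower in the resistant cells, 1 was higher and 2 did not pass. PSMD12, a scaffold subunit of the lid, was at 40.35, 42.45 and 37.5 FPKM in the parental and at 20.2, 19.1 and 23.0 FPKM in the resistant libraries. This was a 1.93-fold decrease, with a log2 fold change of −0.95 (SE 0.10, limma adjusted p = 0.000587). PSMD11, another lid subunit, was at 118, 92.0 and 112 FPKM against 61.4, 59.1 and 59.4 FPKM, a log2 fold change of −0.83 (SE 0.10, limma adjusted p = 0.0011). PSMD2, the large subunit of the base that docks ubiquitin receptors, was the most abundant 19S subunit in the parental cells. It fell from 326.5, 284 and 297 FPKM to 169, 179 and 178 FPKM, a 1.72-fold decrease and a log2 fold change of −0.78 (SE 0.07, limma adjusted p = 0.000325). PSMD14, the deubiquitinase that cuts ubiquitin chains off the substrate, was at 52.7, 48.5 and 60.6 FPKM against 32.3, 31.5 and 31.9 FPKM, a log2 fold change of −0.75 (SE 0.10, limma adjusted p = 0.0013). In each of these genes the resistant libraries lay close together and wholly below the parental ones.

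The lid subunits PSMD7, PSMD6, PSMD3 and PSMD8 were also lower, with log2 fold changes of −0.52, −0.39, −0.37 and −0.28 and limma adjusted p values of 0.00685, 0.00489, 0.0109 and 0.0118. Under quantile normalization the calls for PSMD3 and PSMD8 were lost, and that for PSMD8 was lost with median-ratio scaling as well. PSMD13 (−0.20, adjusted p = 0.106) and the ubiquitin receptor PSMD4 (−0.08, adjusted p = 0.578, limma with Benjamini-Hochberg adjustment) did not pass, and PSMD4 turned to 0.02 with median-ratio scaling or without parental replicate 2. The only 19S subunit called higher with the values as deposited was PSMD1, the other large subunit of the base. It was at 61.4, 56.6 and 69.8 FPKM in the parental and at 81.0, 90.4 and 86.7 FPKM in the resistant libraries, a log2 fold change of 0.46 (SE 0.10, limma adjusted p = 0.00929). PSMD1 and PSMD2, related scaffolds of the base, therefore went in opposite directions.

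The mean level of the 14 core subunits was 1.78, 1.785 and 1.68 times the mean level of the 19S subunits in the parental libraries and 2.135, 2.17 and 2.12 times in the resistant libraries. The groups did not overlap, and the ratio of the group means was 1.225, the same with PSMC1 left out. This ratio and its check were added after the data were seen. These values are ratios within a library and do not depend on scaling. The summed level of the 11 non-ATPase subunits was 1370, 1252 and 1390 FPKM in the parental and 981, 1056 and 1010 FPKM in the resistant libraries. This is 0.759 times the parental mean, or 0.814 times with median-ratio scaling. The corresponding ratio was 0.828 for the ATPases and 0.883 for the alpha ring. For the non-catalytic beta subunits it was 0.987, and 1.06 with median-ratio scaling. Summed over all members, the resistant cells were at 0.907 times the parental level as deposited and at 0.971 times with median-ratio scaling, where the groups overlapped.

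**Figure D4:**
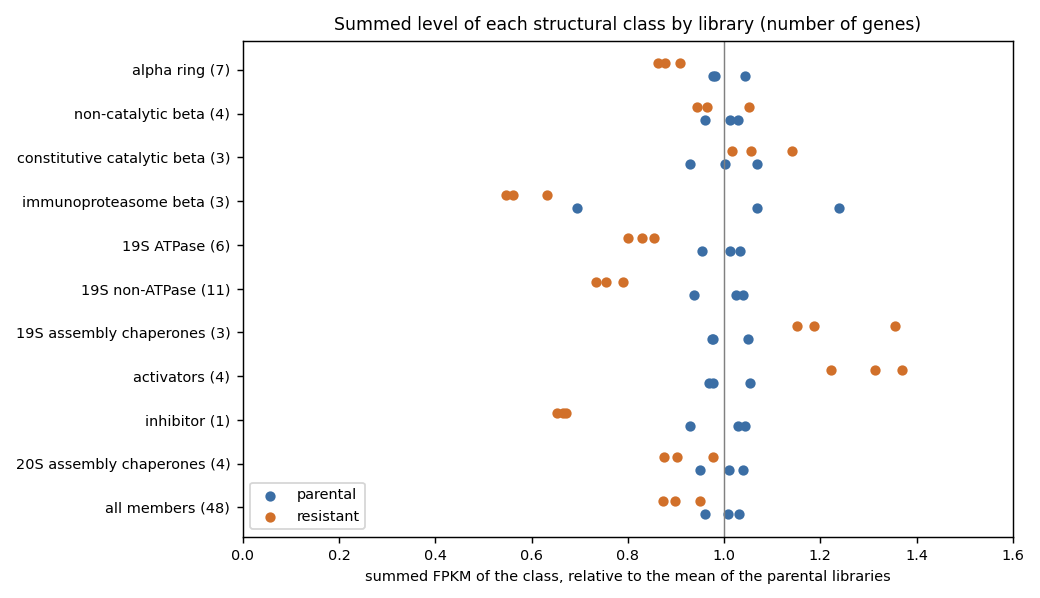
Summed FPKM of each role class in each library, divided by the mean of the parental libraries (linear axis, 1 is the parental mean), with parental libraries in blue, resistant libraries in orange and the number of genes in brackets. The 19S non-ATPase class lies near 0.759 and the activators near 1.30 in the resistant libraries, and the immunoproteasome class, which PSMB10 dominates, near 0.580.

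Of the 7 chaperones of assembly, 2 were higher in the resistant cells and 5 did not pass the threshold. Among genes at 10 FPKM or more, 25.2% were called higher and 31.6% lower. Of the 19S chaperones, PSMD5 was at 12.3, 12.1 and 11.7 FPKM in the parental and at 17.4, 21.4 and 21.6 FPKM in the resistant libraries, a log2 fold change of 0.73 (SE 0.12, limma adjusted p = 0.00295). PSMD9 rose from 66.7 ± 4.74 to 91.3 ± 7.47 FPKM (SD, n = 3 each), which is a log2 fold change of 0.45 (SE 0.09, limma adjusted p = 0.00763). PSMD10, also known as gankyrin, had 39.9 ± 2.12 and 34.6 ± 4.09 FPKM and did not pass (adjusted p = 0.154). The proteins of PSMD5, PSMD9 and PSMD10 bind ATPases before they join the core and leave the finished particle. None of the 20S chaperones passed the threshold in limma with Benjamini-Hochberg adjustment. PSMG1 and PSMG2, which act as a pair in building the alpha ring, had log2 fold changes of −0.04 and −0.15, and PSMG3 had 0.01 (adjusted p = 0.73, 0.246 and 0.941). Its partner PSMG4 had −0.43 with a limma adjusted p of 0.0567 and all resistant values below the parental ones, and it alone of these chaperones was under 0.05 before adjustment.

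The activators cap the core in place of the 19S particle. PSME1, a subunit of PA28, was at 63.5, 63.0 and 65.1 FPKM in the parental and at 150.3, 168 and 157 FPKM in the resistant libraries. It rose 2.48-fold, a log2 fold change of 1.31 (SE 0.07, limma adjusted p = 3.54e-05), the smallest adjusted p of the members, and ranged from 1.27 to 1.35 with a library left out. PSME2, the partner of PSME1 in the same ring, was at 60.8, 87.7 and 48.1 FPKM in the parental and at 94.1, 92.65 and 95.3 FPKM in the resistant libraries. All resistant values were above the parental ones, but the parental libraries were spread, and the log2 fold change of 0.56 (SE 0.21) did not pass (limma adjusted p = 0.0689). Without parental replicate 1, the highest parental library, it was 0.80 with an adjusted p of 0.00428. The PSME1 to PSME2 ratio was 1.045, 0.718 and 1.35 in the parental and 1.597, 1.82 and 1.65 in the resistant libraries. PSME1 and PSME2 are neighbours on chromosome 14, at 24136163 to 24138967 and 24143362 to 24147570 in GRCh38.

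PSME3, which forms the nuclear activator PA28 gamma, was at 113, 100.2 and 124 FPKM in the parental and at 68.6, 94.5 and 85.9 FPKM in the resistant libraries. The log2 fold change of PSME3 was −0.44 (SE 0.14, limma adjusted p = 0.0431), and the call was lost with median-ratio scaling and when parental replicate 0, parental replicate 2, resistant replicate 0 or resistant replicate 2 was left out (−0.54 to −0.31). PSME4, which encodes PA200, was at 32.7, 39.95 and 29.9 FPKM against 24.1, 22.4 and 23.8 FPKM, a log2 fold change of −0.53 (SE 0.12, limma adjusted p = 0.0134). The activators thus parted, with PSME1 higher and PSME3 and PSME4 lower. PSMF1, the inhibitor PI31, was at 97.0, 86.4 and 95.6 FPKM against 62.5, 61.8 and 60.8 FPKM, a 1.505-fold decrease and a log2 fold change of −0.59 (SE 0.07, limma adjusted p = 0.000928).

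Across the 46 tested members, the parental and resistant mean levels had a Spearman rho of 0.92, and the log2 fold change and the mean level one of −0.013. These are descriptions across genes measured in the same libraries, not independent replicates.

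Genes that work with the proteasome under other names formed a list of 27, all of which were tested. Of these, 5 were higher in the resistant cells, 15 were lower and 7 did not pass, and the median log2 fold change was −0.33. Over all genes tested, 44.4% were called (22.1% higher and 22.3% lower), and 56.7% at 10 FPKM or more (25.2% higher and 31.6% lower). POMP, the chaperone that completes the core and is degraded as its first substrate, was at 116.0, 116.0 and 113 FPKM in the parental and at 38.3, 34.8 and 37.9 FPKM in the resistant libraries. This was a 3.105-fold decrease, with a log2 fold change of −1.63 (SE 0.07, limma adjusted p = 1.97e-05), larger than that of any member. RPS27A, which encodes ubiquitin fused to a ribosomal protein, rose from 69.0, 62.3 and 71.6 FPKM to 187, 218 and 198 FPKM, a log2 fold change of 1.57 (SE 0.09, limma adjusted p = 4.94e-05). UBB, another ubiquitin gene, was lower, with a log2 fold change of −0.31 (limma adjusted p = 0.012). VCP, the segregase that extracts ubiquitinated proteins and hands them on, fell from 316, 293 and 313 FPKM to 179, 193 and 199.1 FPKM, a log2 fold change of −0.69 (SE 0.07, limma adjusted p = 0.000411).

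NFE2L1, the transcription factor of the subunit genes, was at 114, 101 and 118 FPKM in the parental and at 71.1, 68.15 and 77.3 FPKM in the resistant libraries. The log2 fold change of NFE2L1 was −0.62 (SE 0.09, limma adjusted p = 0.00186). Its protein is controlled by processing and stability, which RNA levels do not show. ADRM1, a ubiquitin receptor of the 19S particle, fell from 86.6 ± 4.42 to 69.1 ± 5.01 FPKM (SD, n = 3 each), which is a log2 fold change of −0.33 (limma adjusted p = 0.0185). SEM1, a small lid subunit, and USP14, a deubiquitinase that binds the particle, were lower by −0.68 and −1.38 (adjusted p = 0.00406 and 0.00075), while UCHL5 at 0.16 did not pass (adjusted p = 0.138). AKIRIN2, which carries proteasomes into the nucleus, was higher, with a log2 fold change of 1.29 (limma adjusted p = 0.00128). The values of UBB, SEM1, USP14, UCHL5 and AKIRIN2 were picked out after they had been seen.

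Genes that act with the immunoproteasome in interferon response and in MHC class I presentation formed a list of 13, all tested, of which 1 was higher in the resistant cells, 8 were lower and 4 did not pass. The background of lower calls was 22.3% over all genes tested and 31.6% at 10 FPKM or more. The median log2 fold change of this list was −0.98. HLA-C, a classical class I heavy chain, fell from 104, 112 and 94.15 FPKM to 17.7, 16.95 and 21.2 FPKM, a log2 fold change of −2.47 (SE 0.11, limma adjusted p = 2.55e-05). HLA-B fell by 2.42 on the log2 scale (limma adjusted p = 0.000254). Class I heavy chain genes are near copies of each other, so that the division of reads among them is uncertain. TAP1, a subunit of the peptide transporter, was the only gene of the list called higher, with 7.25, 7.71 and 7.32 FPKM in the parental and 10.1, 12.3 and 11.2 FPKM in the resistant libraries (log2 fold change 0.58, SE 0.12, limma adjusted p = 0.00885). By the RefSeq start of PSMB9, TAP1 and PSMB9 lie on either side of the PSMB9 window shown above, and both were called higher. By GENCODE, TAP1 lies within PSMB9, and without a stated use of strand, reads in the shared stretches cannot be told apart. A link between these increases was not tested. TAP2, which lies in the same region, was lower (−1.39), as were B2M, TAPBP and NLRC5, while IRF1, the interferon-induced activator of immunoproteasome genes, had a log2 fold change of 0.15 and did not pass (limma adjusted p = 0.806).

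**Figure D5:**
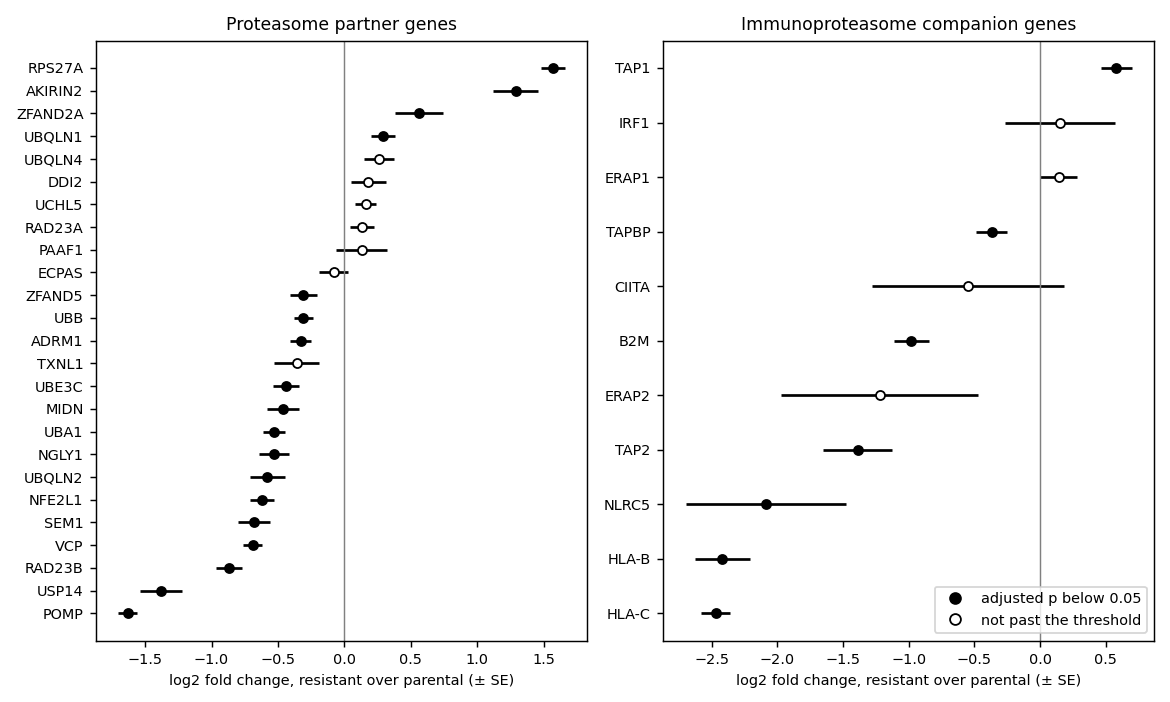
Log2 fold change (log2 scale) of resistant over parental cells with bars of 1 standard error (SE), for 25 partner genes of the proteasome on the left and 11 companion genes of the immunoproteasome on the right, from limma with 3 libraries in each group. Filled points passed an adjusted p of 0.05. POMP stands lowest among the partners at −1.63 and RPS27A highest at 1.57, and TAP1 is the only filled point above 0 among the companions.

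The members are spread over 17 chromosomes, and the median over all tested genes of a chromosome differed between chromosomes. On chromosome 17, 6 of 7 tested members were lower (PSMB3, PSMC5, PSMD3, PSMD11, PSMD12 and PSME3) and PSMB6 did not pass. The median log2 fold change of these members was −0.43, against −0.19 over the 1478 tested genes of the chromosome. The calls of PSMD3 and PSME3 were each lost in at least 1 setting. Over all genes tested, 22.1% were called higher and 22.3% lower, and at 10 FPKM or more 25.2% and 31.6%. The 7 tested members on chromosome 14 had 2 higher, 2 lower and a median of −0.06, where the chromosome had −0.15. On chromosome 7, the 3 members PSMA2, PSMC2 and PSMG3 had a median of 0.27, and the chromosome as a whole had 0.29. PSMD9 on chromosome 12 had 0.45, where the median of the chromosome was 0.35. On some other chromosomes the medians lay apart. They were −0.53 for 3 members against 0.12 on chromosome 2, and −0.51 for 2 members against −0.05 on chromosome 19. They were 0.87 for 4 members against 0.13 on chromosome 6, and 0.23 for 2 members against −0.11 on chromosome 9. The chromosome 6 members include PSMB8 and PSMB9, which rest on few reads. On others the medians were closer, such as −0.20 for 3 members against −0.17 on chromosome 11. The part of these chromosome medians in the members' values was not tested.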

How the data were processed

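RNA-Seq of 3 parental and 3 enzalutamide resistant C4-2B libraries was analysed. Per the study's methods, reads of 50 bp, single-end, were trimmed by the authors in TrimGalore 0.4.3 and aligned in STAR 2.5.3 to GRCh38 (GENCODE v25 annotation), and expression was estimated in Cufflinks 2.2.1. The submitters' processing notes instead name mm10, Trimmomatic 0.27 and FastQC 0.10.1, but the deposited gene identifiers are human. The labels name both an unstranded and a stranded TruSeq kit, and the use of strand in counting is not given in the sources used here. The deposited values were taken as FPKM from the methods and the form of the values, since the header names no unit. No counts are given, so the depth was estimated from the values that 1 read leaves, assuming fragments of 200 bases, and no counting interval was possible.

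Log2(FPKM + 0.1) was fitted with limma 3.58.1 (R 4.3.3, eBayes with a trend of variance on level) over 24468 genes, with Benjamini-Hochberg adjustment, a threshold of 0.05 and two-sided p values. Ratios were tested with exact permutation tests (scipy 1.17.1). Sums were made of FPKM. The fit was tested on simulated data. Alternatives changed the pseudocount, the low-value filter, the scaling (median-ratio, quantile, or 6271 short non-coding RNA genes removed) or the variance trend, added a replicate block or a 2-fold limit, or left out a library. Gene positions are from GENCODE v44 and promoters from RefSeq, both GRCh38.

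The members and lists were chosen with earlier results of these data known. Values per library were planned for the catalytic subunits, the activators, the 5 largest increases and 5 largest decreases among called members and the tissue-restricted members, with 3 genes of each other list by smallest adjusted p and POMP, ADRM1 and NFE2L1. Those of PSMA3, PSMA6, PSMB3, PSMB4, PSMC1, PSMD1, PSMD14 and PSMF1 were added after they were seen. PSMC4 and PSMD14 share the rounded value at the end of the second list. Some genes of the lists, which stay in the counts, are not reported here by name. LNCaP libraries, qRT-PCR and protein measurements were not analysed here.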

Additional observations from a re-analysis of the deposited data

How the results depend on the processing

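Of the 28 called members, 19 stayed called in the same direction under 15 settings, which change the pseudocount, filter, scaling, variance trend or block or leave out 1 library. Requiring a 2-fold change as well left 3 members higher and 1 lower of the 46 tested. It left 2 partner genes higher and 2 lower, and 0 companion genes higher and 5 lower. Of the 24468 genes tested over the whole table, it left 3659 higher and 3320 lower, a larger share than among the members. TAP1 rose by less than 2-fold, and each other setting called 1 companion gene higher. With a library left out, the members called ranged from 7 to 9 higher and 15 to 18 lower, partner genes called higher from 3 to 5 and companion genes called lower from 5 to 8. Partner genes called higher were 3 without parental replicate 0, parental replicate 2, resistant replicate 1 or resistant replicate 2, and companion genes called lower were 5 when parental replicate 1 was left out. Partner genes called higher were 3 with no filter on low values and 2 with no variance trend. Scaling moved the member median to −0.11 (median-ratio), −0.08 (quantile) and −0.15 (without short non-coding RNA genes). With median-ratio scaling, the ratios of summed levels were 0.945 for the alpha ring, 1.06 for the non-catalytic beta subunits, 0.887 for the ATPases, 0.814 for the non-ATPases, 0.711 for the inhibitor and 0.971 for all members. Without a variance trend, 7 members were higher and 13 lower.

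Values that changed sign all belonged to genes not past the threshold. PSMB2 was 0.02 with quantile normalization. With median-ratio scaling, quantile normalization and no short non-coding RNA genes, PSMC6 was 0.04, 0.05 and 0.00 and PSMG1 was 0.06, 0.07 and 0.02. PSMD4 was 0.02 under the first and the second of these, and ranged from −0.16 to 0.02 with a library left out, and PSMG3 from −0.09 to 0.09. Some members passed the threshold only in an alternative. These were PSMC3 without parental replicate 1 (−0.30), PSMG4 without parental replicate 2 (−0.59) and with a mean of at least 1 FPKM required (−0.43), PSMC2 without resistant replicate 0 (0.34), with median-ratio scaling (0.37), with quantile normalization (0.39) and without short non-coding RNA genes (0.33), PSMD10 without resistant replicate 1 (−0.31), PSME2 without parental replicate 1 (0.80) and with quantile normalization (0.71), and PSMB1 (0.32) and PSMB6 (0.18) with quantile normalization. The causes were not tested. The log2 difference of the PSMB8 to PSMB5 ratio fell from 1.14 to 0.43, and that of PSMB9 to PSMB6 from 3.29 to 1.63, with 1 FPKM added. Values near 1 FPKM, such as those of PSMB8, PSMB9 and PSMC1, are limited by depth.

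The replicate numbers were not taken to pair the libraries. Libraries with the same number had correlations of 0.00176, 0.018 and −0.00138 between their deviations from the group means. These values show no shared effect of the replicate number, but cannot settle whether such libraries were handled together. A fit with the replicate block called 8 members higher and 16 lower, losing PSMA1, PSMB5, PSMB7 and PSME3, with 3 partner genes higher, and 4670 genes higher and 4793 lower over the whole table.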

Other observations

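Rows related to the members by name were looked up after the member values had been seen. Of 5 antisense genes, PSMG3-AS1 was at 1.18, 0.506 and 1.45 FPKM in the parental and at 6.84, 4.50 and 6.99 FPKM in the resistant libraries (log2 fold change 2.52, SE 0.40, limma adjusted p = 0.00306), while PSMG3 itself had a log2 fold change of 0.01. Without a stated use of strand, reads of the antisense gene and of PSMG3 cannot be told apart where they overlap. PSMA3-AS1, at 28.9 to 36.6 FPKM, and PSMD5-AS1, at 4.86 to 6.295 FPKM, had log2 fold changes of 0.02 and 0.09, and PSMD6-AS2 had −1.19 (limma adjusted p = 0.063). PSMB8-AS1 was not tested. Of 31 pseudogenes of the members, 15 were listed at 0 in all libraries, and the highest value was 1.19 FPKM, for PSMD7P1 in parental replicate 1.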
